A study of Mus musculus with 9 samples.

Results

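Immediate early genes and the subunits of the transcription factor AP-1 were followed in whole mouse lung, as the 10 genes Fos, Fosb, Jun, Junb, Jund, Egr1, Nr4a1, Atf3, Cebpb and Cebpd. They were chosen by name out of the 34638 genes of the table, each matched 1 row, and all 10 passed the filter on low values in every comparison. The lungs came from 9 wild-type C57BL/6 mice in 3 groups of 3. The PBS group received phosphate-buffered saline, the IL-33 group received recombinant mouse IL-33 into the trachea at 0.5 µg on each day from day 0 to day 3, and the IL-33+LM8 group received the same IL-33 after an intraperitoneal injection of LM8, an inhibitor of the adaptor protein MyD88, at 10 mg/kg. For the PBS and IL-33 groups the study's methods give female mice aged 6 to 8 weeks, an instillation volume of 25 µL and lungs taken on day 4; age and sex are not given for the LM8 group in the sources used here. No mice given LM8 without IL-33 were analysed here, so a change with LM8 was seen only on top of IL-33.

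Immediate early genes are switched on by signals that reach the nucleus through MAP kinases, calcium and cAMP, without new protein synthesis, and their transcripts are short-lived. Fos and Jun proteins pair through leucine zippers to form AP-1, and Atf3 and the C/EBP factors are related zipper proteins that act in inflammation. In lung they are made by epithelial, endothelial, stromal and immune cells alike.

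Of the 10 genes, 6 differed by at least 2-fold between IL-33 and PBS lungs at an adjusted p under 0.05, which is what "called" means here. Fos, Fosb, Egr1 and Nr4a1 fell to between 0.364 and 0.48 times their PBS mean, whereas Junb rose 2.49-fold and Atf3 rose 4.4-fold. With LM8 added, Egr1 was called higher than with IL-33 alone, Fos and Jun were higher and Atf3 lower by less than 2-fold, and Junb stayed at 1.03 times the IL-33 mean. Jund, Cebpb and Cebpd varied more between the mice of 1 group than between the groups. Adjusted p-values were computed with edgeR (quasi-likelihood) and corrected by Benjamini-Hochberg over every gene tested, and levels are FPKM, that is, fragments scaled to transcript length and library size.

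Libraries held between 53877663 and 90607218 counted reads, and mitochondrial transcripts made up 2.48 to 3.21% of them. Lung identity was plain in all 9, with Sftpc, the surfactant protein of alveolar type 2 cells, at 4880 to 11600 FPKM. In every library at least 49 reads were counted for each of the 10 genes. PBS replicate 3, IL-33 replicate 1 and IL-33+LM8 replicate 3 stood apart from the other mice of their groups in Jund, Cebpb and Cebpd and in many genes whose whole transcript is rich in G and C. These libraries are pointed out wherever a result rests on them. The labels do not say more than that the mice were separate members of a group, so each p-value measures the spread between the 6 libraries compared.

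**Figure D1:**
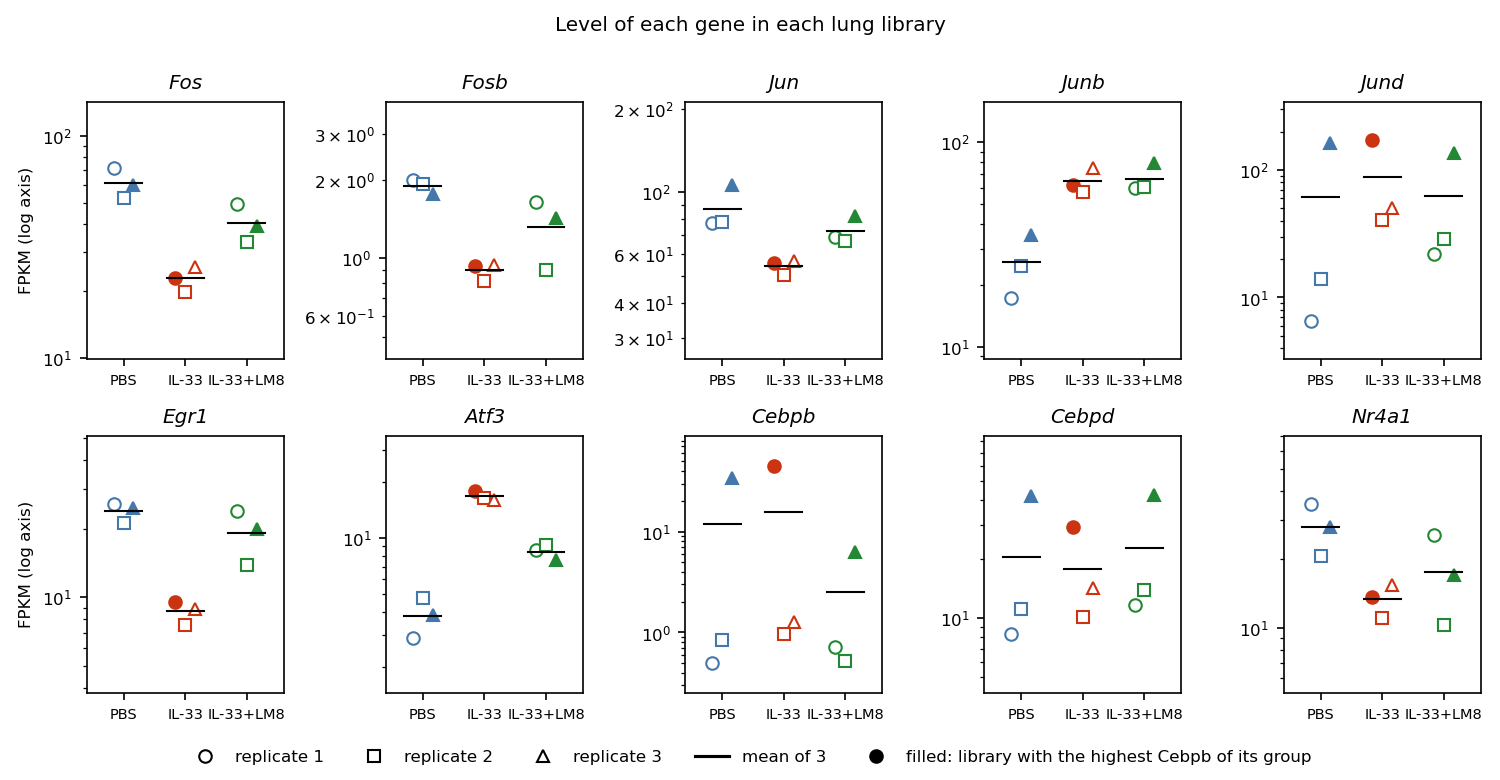
FPKM (log axis, own scale in each panel) of the 10 genes in each of the 9 libraries, by group, with a line at the mean of 3; symbols give the replicate number and filled symbols the library with the highest Cebpb of its group. Fos, Egr1 and Atf3 in IL-33 lungs sat apart from the other 6 libraries, while in Jund, Cebpb and Cebpd the filled symbols were the highest of each group.

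Fos encodes the founding subunit of AP-1, which cannot pair with itself and needs a Jun partner. It was at 71.2, 52.3 and 60.1 FPKM in the PBS lungs, at 22.9, 19.7 and 25.7 in the IL-33 lungs, and at 49.3, 33.1 and 39.4 with LM8. The 3 groups did not overlap, with IL-33 lowest and LM8 in between. Fos fell by 1.43 on the log2 scale with IL-33 (SE 0.14, adjusted p = 0.00012 by edgeR), was higher by 0.83 with LM8 than with IL-33 alone (SE 0.15, adjusted p = 0.0066), and remained lower than in PBS lungs (log2 fold change -0.58, SE 0.16, adjusted p = 0.036). These comparisons share their groups, so the values are not independent of each other. Because whole lung was sequenced, fewer cells that express a gene and less of its RNA per cell cannot be told apart, here and for every gene below. Of 6 endothelial markers 4 were lower with IL-33 at any fold and all 6 were higher with LM8 than with IL-33 alone, and of 8 epithelial markers 5 were lower and 1 higher, and then 5 higher. Summed over the endothelial markers, the level was 652 to 737 FPKM in PBS lungs, 422 to 465 with IL-33 and 641 to 659 with LM8, and over the epithelial markers it was 33200 to 36100, 14500 to 15700 and 27400 to 29600 FPKM. Scgb1a1 and Sftpc gave most of the epithelial sum. Epcam was the marker higher with IL-33 (log2 fold change 0.27, adjusted p = 0.043 by edgeR), and Cdh1 (-0.13) and Foxj1 (-0.03) did not pass. No endothelial or epithelial marker was at 0 in any library, and their part in the Fos result was not tested.

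Fosb, the related subunit whose splice forms include the long-lived deltaFosB, was 1 of the scarce members. Its levels were 1.99, 1.92 and 1.77 FPKM in PBS lungs, 0.93, 0.82 and 0.94 with IL-33, and 1.64, 0.9 and 1.43 with LM8. All IL-33 lungs lay below all PBS lungs, and with LM8 replicate 2 lay within the IL-33 range while the other mice lay between the groups. The fall with IL-33 was 1.07 on the log2 scale (SE 0.12, adjusted p = 0.00025 by edgeR). Without IL-33 replicate 2 it was -1.0 and just missed the 2-fold limit, as did limma on log2(FPKM + 0.1), and on log2(FPKM + 1), which understates the change of a scarce gene, the fall was 0.61 (log2 fold change -0.61). With LM8 the difference from IL-33 alone was 0.55 (SE 0.22, adjusted p = 0.11) and that from PBS was -0.51 (SE 0.21, adjusted p = 0.12), and neither passed the test.

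Egr1 encodes a zinc finger factor that serum response factor and MAP kinase signalling switch on. It was at 25.6, 21.3 and 24.8 FPKM in PBS lungs, 9.57, 7.58 and 8.93 with IL-33, and 23.9, 13.9 and 19.9 with LM8. The IL-33 lungs lay below all others, and the LM8 range overlapped the PBS range. The fall with IL-33 was 1.46 on the log2 scale (SE 0.11, adjusted p = 3.1e-05 by edgeR). With LM8, Egr1 was higher than with IL-33 alone by 1.14 (SE 0.19, adjusted p = 0.004), the only call among the 10 genes in that comparison, and without IL-33+LM8 replicate 1 the difference was 0.96, short of 2-fold. Against PBS the difference was -0.30 (SE 0.18, adjusted p = 0.25).

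Nr4a1, also known as Nur77, encodes an orphan nuclear receptor that antigen receptor and growth factor signals induce. The PBS lungs had 35.1, 20.8 and 27.7 FPKM, the IL-33 lungs 13.6, 11.1 and 15.4, and the LM8 lungs 25.6, 10.3 and 17.0. All IL-33 lungs were below all PBS lungs, and the LM8 lungs spread from below the IL-33 range into the PBS range. Nr4a1 fell by 1.06 on the log2 scale with IL-33 (SE 0.20, adjusted p = 0.0035 by edgeR). The call was lost without PBS replicate 1, at -0.85, and without IL-33 replicate 2, at -0.93, and by limma on log2(FPKM + 1), at -0.99. With LM8 the differences were 0.40 from IL-33 alone (SE 0.30, adjusted p = 0.38) and -0.65 from PBS (SE 0.33, adjusted p = 0.18). Without IL-33+LM8 replicate 1 the difference from PBS was -1.01 and was called.

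Fos, Fosb, Egr1 and Nr4a1 also varied alike within a group. Among the LM8 lungs, replicate 1 was highest and replicate 2 lowest in all 4 genes, and among the IL-33 lungs replicate 2 was lowest in all 4. In the PBS lungs replicate 2 was lowest in Fos, Egr1 and Nr4a1. This order is a description of these mice and was not tested.

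Upstream sequence of the genes that moved is shown to compare the letters in front of those that fell (Fos, Fosb, Nr4a1) and those that rose (Junb, Atf3). RefSeq promoters (GRCm38.p6) matched 8 of the 10 genes, and Egr1 and Cebpd had no entry. Each stretch is the 250 bases before the start site, 5′ to 3′ on the gene's strand. Capitals mark the core of the cAMP response element, TGACG, or its reverse complement CGTCA, and the TATA box, TATAAA.
Fos: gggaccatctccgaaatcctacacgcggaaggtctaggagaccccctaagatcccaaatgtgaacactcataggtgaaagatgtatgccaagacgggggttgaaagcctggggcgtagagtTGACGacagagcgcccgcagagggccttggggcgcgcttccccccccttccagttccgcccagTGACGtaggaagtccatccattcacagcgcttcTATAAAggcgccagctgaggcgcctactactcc
Fosb: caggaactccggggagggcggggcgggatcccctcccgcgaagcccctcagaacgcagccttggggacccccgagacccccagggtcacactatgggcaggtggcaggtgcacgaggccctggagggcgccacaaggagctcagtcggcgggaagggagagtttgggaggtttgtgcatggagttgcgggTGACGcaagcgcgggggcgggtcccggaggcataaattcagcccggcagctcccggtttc
Nr4a1: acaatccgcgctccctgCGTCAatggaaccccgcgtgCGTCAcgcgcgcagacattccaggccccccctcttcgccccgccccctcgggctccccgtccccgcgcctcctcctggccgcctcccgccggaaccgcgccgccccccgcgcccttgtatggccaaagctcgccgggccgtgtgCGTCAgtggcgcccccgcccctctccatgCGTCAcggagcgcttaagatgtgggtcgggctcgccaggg
Junb: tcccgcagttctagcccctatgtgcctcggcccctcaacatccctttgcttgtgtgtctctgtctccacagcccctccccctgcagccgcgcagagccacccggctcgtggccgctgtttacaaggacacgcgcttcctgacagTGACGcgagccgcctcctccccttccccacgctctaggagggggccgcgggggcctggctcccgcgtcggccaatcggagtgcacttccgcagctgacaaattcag
Atf3: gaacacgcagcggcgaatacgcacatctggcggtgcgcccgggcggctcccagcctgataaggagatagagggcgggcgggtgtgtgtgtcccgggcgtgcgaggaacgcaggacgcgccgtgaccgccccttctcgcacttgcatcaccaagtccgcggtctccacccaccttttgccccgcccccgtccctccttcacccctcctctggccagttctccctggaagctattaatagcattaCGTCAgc
The Fos stretch lay at chr12:85473640-85473889 on the plus strand. The Fosb stretch lay at chr7:19310046-19310295 on the minus strand. The Nr4a1 stretch lay at chr15:101266596-101266845 on the plus strand. The Junb stretch lay at chr8:84978749-84978998 on the minus strand. The Atf3 stretch lay at chr1:191183334-191183583 on the minus strand. Each of the 5 held at least 1 response element core, and Nr4a1 held 4. Over all 8 matched members 6 held this core, against 17.8% of 32851 promoters of the same length. The GC box GGGCGG was also in 6 of the 8, against 32.7%. Member promoters with the core were 58.4 to 81.6% G and C, and the comparison was not matched for this. Only Fos held a TATA box by these letters, at 33 to 28 bases before its start, and 12.4% of all promoters did. The full response element TGACGTCA, which contains the core, was in 0 of the 8 (1.55% of all promoters), the AP-1 site TGANTCA in 0 (6.75%) and the CArG box of serum response factor in 0 (1.47%), all searched on both strands. Only these 250 bases and these exact letters were searched, so sites farther upstream or with other letters would have been missed. Egr1 could not be searched. The core was added to the search after the full element was found in none. The members that fell and those that rose were not separated by these letters in this window.

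Jun encodes the AP-1 subunit that JNK phosphorylates, and it was the most abundant of the 10 genes in PBS lungs per length of transcript, at a mean of 87.3 FPKM. Its levels were 77.4, 78.6 and 106 FPKM in PBS lungs, 55.6, 50.3 and 56.7 with IL-33, and 69.2, 66.6 and 82.4 with LM8. The IL-33 lungs were below all others, and the LM8 and PBS ranges overlapped. The fall of 0.69 on the log2 scale with IL-33 (SE 0.12, adjusted p = 0.0025 by edgeR) and the rise of 0.42 with LM8 (SE 0.09, adjusted p = 0.012) passed the test without reaching 2-fold. Jun in LM8 lungs against PBS lungs gave -0.25 (SE 0.14, adjusted p = 0.21).

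Junb encodes the Jun protein that pairs with BATF in T helper cells and restrains c-Jun in other settings, and it went the other way. PBS lungs had 17.4, 25 and 35.4 FPKM, IL-33 lungs 61.6, 57.4 and 74.6, and LM8 lungs 59.6, 60.4 and 79.0. Every lung given IL-33, with or without LM8, was above every PBS lung, and the IL-33 and LM8 ranges overlapped. Junb rose by 1.31 on the log2 scale with IL-33 (SE 0.24, adjusted p = 0.0027 by edgeR) and was 1.37 above PBS with LM8 (SE 0.24, adjusted p = 0.0057). Between LM8 and IL-33 alone the difference was 0.04 (SE 0.14, adjusted p = 0.87), and its sign turned without IL-33+LM8 replicate 3, at -0.09. Neutrophil markers were also higher in both groups given IL-33, with all 8 called in each comparison with PBS. Their summed level was 28.4 to 35.0 FPKM in PBS lungs, 194 to 218 with IL-33 and 891 to 1040 with LM8. It thus rose further with LM8, where Junb did not pass the test, and its part in the Junb result was not tested.

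Atf3 encodes a stress-induced factor that binds ATF and AP-1 sites and represses many inflammatory genes. It was at 2.89, 4.72 and 3.82 FPKM in PBS lungs, 17.8, 16.4 and 16.1 with IL-33, and 8.6, 9.15 and 7.61 with LM8. The 3 groups were fully separate, with LM8 between PBS and IL-33. Atf3 rose by 2.14 on the log2 scale with IL-33 (SE 0.17, adjusted p = 4.7e-05 by edgeR), the largest fitted change of the 6 called genes. With LM8 it was lower than with IL-33 alone by 0.99 on the log2 scale (log2 fold change -0.99, SE 0.09, adjusted p = 0.00037), just short of 2-fold, and it was past 2-fold without IL-33 replicate 2, IL-33 replicate 3 or IL-33+LM8 replicate 2 (-1.0, -1.01 and -1.06). Atf3 with LM8 stayed above PBS by 1.17 (SE 0.18, adjusted p = 0.0035), or 0.99 by limma on log2(FPKM + 1). Of 6 markers of monocytes and interstitial macrophages, all were higher with IL-33 at any fold, and with LM8 against IL-33 alone 5 were lower and 1, Ly6c2, higher (log2 fold change 0.34, adjusted p = 0.035). The summed level, to which C1qa and C1qb gave most, had the order of Atf3, at 77.4 to 86.6 FPKM in PBS lungs, 418 to 444 with IL-33 and 195 to 207 with LM8. None of these 6 was at 0 in any library. Summed eosinophil, alveolar macrophage, T and B cell, and fibroblast and smooth muscle markers had the order of Atf3 too. Endothelial, epithelial, neutrophil and red cell sums did not. Of 6 alveolar macrophage markers, 3 were called higher and 3 lower with IL-33. Chil3 gave most of their sum, at means of 203, 4350 and 1950 FPKM in PBS, IL-33 and LM8 lungs. Of 6 fibroblast and smooth muscle markers, 3 were higher and 2 lower with IL-33 at any fold. With LM8 against IL-33 alone, 3 of these were higher and 1, Col1a1, lower. Of 6 T and B cell markers, 4 were higher and 0 lower with IL-33, and then 0 higher and 2 lower. The part of these cells in the Atf3 result was not tested.

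**Figure D2:**
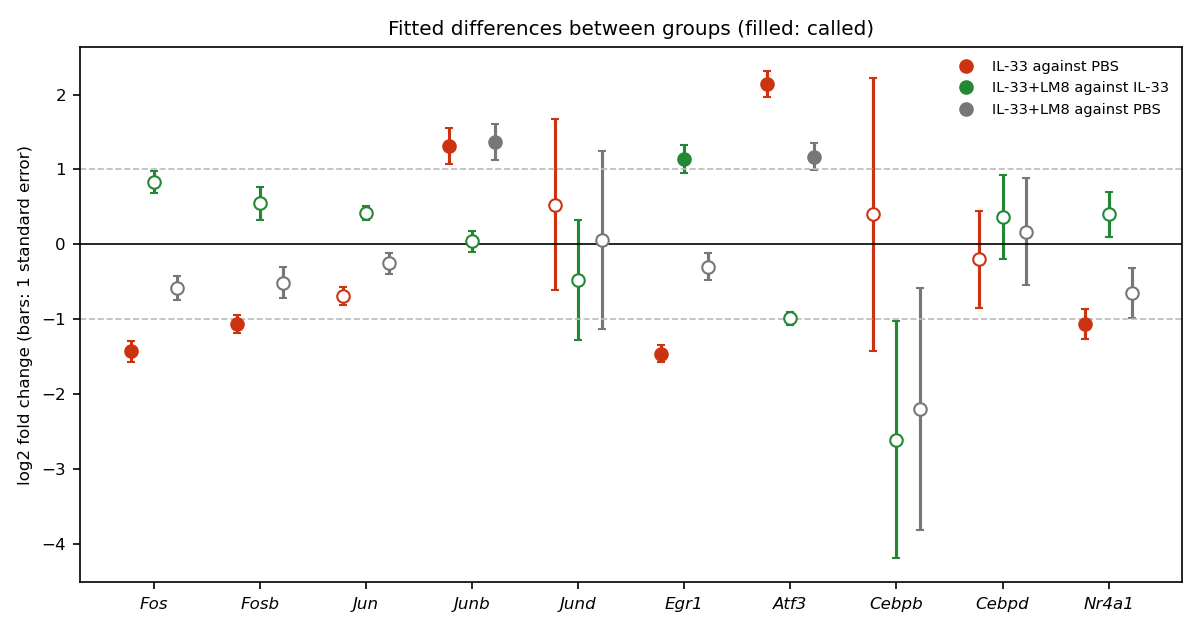
Fitted log2 fold change (vertical axis) of each of the 10 genes in the 3 comparisons, with bars of 1 standard error; filled points were called and dashed lines mark 2-fold. Fos, Fosb, Egr1 and Nr4a1 sat below -1 and Junb and Atf3 above 1 for IL-33 against PBS, and the bars of Jund, Cebpb and Cebpd were the longest.

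Counted over the 10 genes, 4 were called lower and 2 higher in IL-33 lungs against PBS lungs, where 6.24% of the 16831 genes tested were called lower and 10.8% higher. With no minimum fold these counts were 5 lower and 2 higher, against 27.2% and 27.4% of all genes tested. With LM8 against IL-33 alone, 1 gene was called higher and 0 lower by edgeR, against 1.46% and 3.93% of all genes. DESeq2 gave the same counts, and at an unadjusted p under 0.05 there were 4 higher and 1 lower, against 19% and 19.4% of all genes. With no minimum fold 3 were higher and 1 lower at the adjusted threshold, against 12.6% and 13.9%. With LM8 against PBS, 2 were called higher and 0 lower by edgeR and by DESeq2 (5.87% and 1.46% of all genes), and at an unadjusted p under 0.05 there were 2 higher and 2 lower, against 21.7% and 19.9%. With no minimum fold the counts were 2 higher and 1 lower, against 16.3% and 13.4%.

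Jund encodes the Jun subunit that is expressed widely without a stimulus. It was at 6.56, 13.9 and 163 FPKM in PBS lungs, 172, 40.7 and 50.5 with IL-33, and 21.9, 28.6 and 137 with LM8. In each group 1 library lay far above the rest, namely PBS replicate 3, IL-33 replicate 1 and IL-33+LM8 replicate 3, and the groups overlapped. Jund differed by 0.53 on the log2 scale between IL-33 and PBS (SE 1.14, adjusted p = 0.72 by edgeR). Without PBS replicate 3 that difference was 3.10 and was called, and without IL-33 replicate 1 it was -0.40. Jund in LM8 lungs gave -0.48 against IL-33 alone (SE 0.80, adjusted p = 0.71) and 0.06 against PBS (SE 1.19, adjusted p = 0.97). With all 3 of the libraries left out, the differences were 2.16, -0.85 and 1.32 in the same order, given with no test since these libraries were picked by the values of this gene, Cebpb and Cebpd.

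Cebpb encodes C/EBP beta, a factor of emergency granulopoiesis and macrophage activation, and it varied most. PBS lungs had 0.5, 0.84 and 34.2 FPKM, IL-33 lungs 44.6, 0.96 and 1.27, and LM8 lungs 0.72, 0.52 and 6.25. The same 3 libraries were the highest of their groups, and the other 6 all lay between 0.5 and 1.27 FPKM. The fitted differences were 0.40 for IL-33 against PBS (SE 1.82, adjusted p = 0.87 by edgeR), -2.61 for LM8 against IL-33 (SE 1.58, adjusted p = 0.27) and -2.20 for LM8 against PBS (SE 1.62, adjusted p = 0.35). Leaving out 1 library moved the first between -3.39, without IL-33 replicate 1, and 4.52, without PBS replicate 3. With the 3 libraries left out the differences were 0.74, -0.84 and -0.10.

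Cebpd encodes C/EBP delta, an acute phase factor that STAT3 induces. PBS lungs had 8.26, 11.2 and 42.3 FPKM, IL-33 lungs 29.3, 10.1 and 14.2, and LM8 lungs 11.7, 14.0 and 42.7. The high library was again PBS replicate 3, IL-33 replicate 1 and IL-33+LM8 replicate 3, and the other 6 lay between 8.26 and 14.2 FPKM. The differences were -0.20 for IL-33 against PBS (SE 0.65, adjusted p = 0.81 by edgeR), 0.36 for LM8 against IL-33 (SE 0.56, adjusted p = 0.69) and 0.17 for LM8 against PBS (SE 0.71, adjusted p = 0.88). With the 3 libraries left out they were 0.33, 0.09 and 0.41, so the first changed its sign.

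The spread within groups set these 3 genes apart from the other 7. The pooled within-group SD of log2 CPM, counts scaled to library size, was 2.83 for Cebpb, 1.74 for Jund and 1.03 for Cebpd, at the 99.2, 98.6 and 97.1 percentile of the 16831 genes tested. It was 0.46 for Nr4a1, 0.34 for Junb and between 0.18 and 0.27 for Jun, Atf3, Fos, Egr1 and Fosb, with a median of 0.15 over all genes. Without the 3 libraries, picked by these genes' own values so that a drop was built in, it was 0.39 for Cebpb, 0.48 for Jund and 0.29 for Cebpd. Over the same 6 libraries it was larger than before for Nr4a1 (0.65), Fos (0.34), Egr1 (0.35), Fosb (0.36) and Atf3 (0.28), and smaller for Junb (0.26) and Jun (0.08). Junb also had its highest PBS and LM8 value in 2 of these libraries, PBS replicate 3 and IL-33+LM8 replicate 3. The 6 genes called in IL-33 against PBS remained called with the 3 libraries left out, with log2 fold changes of -1.44 for Fos, -1.14 for Fosb, -1.51 for Egr1, -1.08 for Nr4a1, 1.64 for Junb and 2.10 for Atf3. With these 2 mice a group, the differences with LM8 that had passed at any fold were 0.86 for Fos (adjusted p = 0.051 by edgeR) and 0.35 for Jun (adjusted p = 0.071) against IL-33, and -0.58 for Fos against PBS (adjusted p = 0.12), and no longer passed.

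Cebpb and Jund are each made from 1 exon and had the highest GC content of the 10 transcripts, 67.2% and 67.1%, above 99.9% of the genes with a known GC content. Cebpd, also of 1 exon, had 51.6% over its whole transcript but 72.8% in its richest 500 bases. Egr1 reached 74% in its richest 500 bases and Jun, of 1 exon, 69.6%. In PBS replicate 3, IL-33 replicate 1 and IL-33+LM8 replicate 3, Cebpb deviated from its group mean by 3.82, 3.56 and 2.23 on the log2 scale, Egr1 by 0.06, 0.15 and 0.09, and Jun by 0.3, 0.04 and 0.19. To show the letters involved, the richest 100 bases within 1 coding exon are printed for Cebpb, Jund and Cebpd, with Fos for comparison, from GENCODE transcripts (GRCm38).
Cebpb: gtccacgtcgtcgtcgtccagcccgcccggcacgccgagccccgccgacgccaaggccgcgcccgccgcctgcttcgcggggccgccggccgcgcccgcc
Jund: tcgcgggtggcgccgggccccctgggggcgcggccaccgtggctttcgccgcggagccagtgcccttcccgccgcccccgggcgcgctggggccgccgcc
Cebpd: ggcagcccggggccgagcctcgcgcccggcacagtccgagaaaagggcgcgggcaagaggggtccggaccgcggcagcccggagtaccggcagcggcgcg
Fos: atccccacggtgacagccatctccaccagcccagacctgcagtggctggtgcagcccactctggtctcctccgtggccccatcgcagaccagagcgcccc
The Cebpb stretch lay at chr2:167689552-167689651 on the plus strand, in exon 1 of 1. The Jund stretch lay at chr8:70699626-70699725 on the plus strand, in exon 1 of 1. The Cebpd stretch lay at chr16:15887820-15887919 on the plus strand, in exon 1 of 1. The Fos stretch lay at chr12:85474974-85475073 on the plus strand, in exon 2 of 4. Bases G and C made up 85% of the Cebpb stretch, 86% for Jund, 79% for Cebpd and 68% for Fos.

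Many other genes with a GC-rich whole transcript were also high in these libraries. Genes with a GC-rich stretch were highest there more often than others too, though their median deviations were small. Among the 57 expressed genes with a transcript GC content of at least 65%, the median deviation from the group mean was 0.74 on the log2 scale in PBS replicate 3, 0.33 in IL-33 replicate 1 and 0.65 in IL-33+LM8 replicate 3, and between -0.38 and -0.15 in the other 6 libraries. In that class 52.6% of genes were highest in exactly these libraries of the 3 groups, as were 23.5% of genes from 60 to 65% GC and 8.66% of those under 60%. By the richest 500 bases, the measure by which Cebpd stood out, 34.4% of genes from 70 to 80% were highest in exactly these libraries. The share was 25.7% at 80% and over and 6.57% under 70%. Median deviations in these libraries were 0.09, 0.06 and 0.07 for the 1084 genes from 70 to 75%. For the 105 genes at 80% and over they were 0.03, 0.04 and 0.03. Of 16313 genes, 17 were over 2-fold above their group mean in all 3, of which 7 had at least 65% GC, 6 from 60 to 65% and 4 less. These shares and counts include the genes by whose values the libraries were picked. Cebpb and Jund are among the 57, the 17 and the 7, and with Cebpd they are in the 70 to 80% class. Xpa, the nearest gene in pattern to Cebpd, had 50% GC and was at 6.36, 6.58 and 6.58 FPKM in these 3 libraries and between 1.91 and 3.14 in the others. An offset for GC content class left the calls among the 10 genes as they were, and Cebpb still differed by -2.33 between LM8 and IL-33 (adjusted p = 0.26 by edgeR). That offset was the median deviation of a whole-transcript GC class. Fos, Fosb, Jun, Egr1, Atf3, Nr4a1 and Cebpd were in classes from 50 to 60%. Median deviations from the group mean were -0.03 to 0.04 there, so the offset could hardly have moved their calls. What set these libraries apart was not tested, and a difference between the mice cannot be told apart from one between the libraries.

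**Figure D3:**
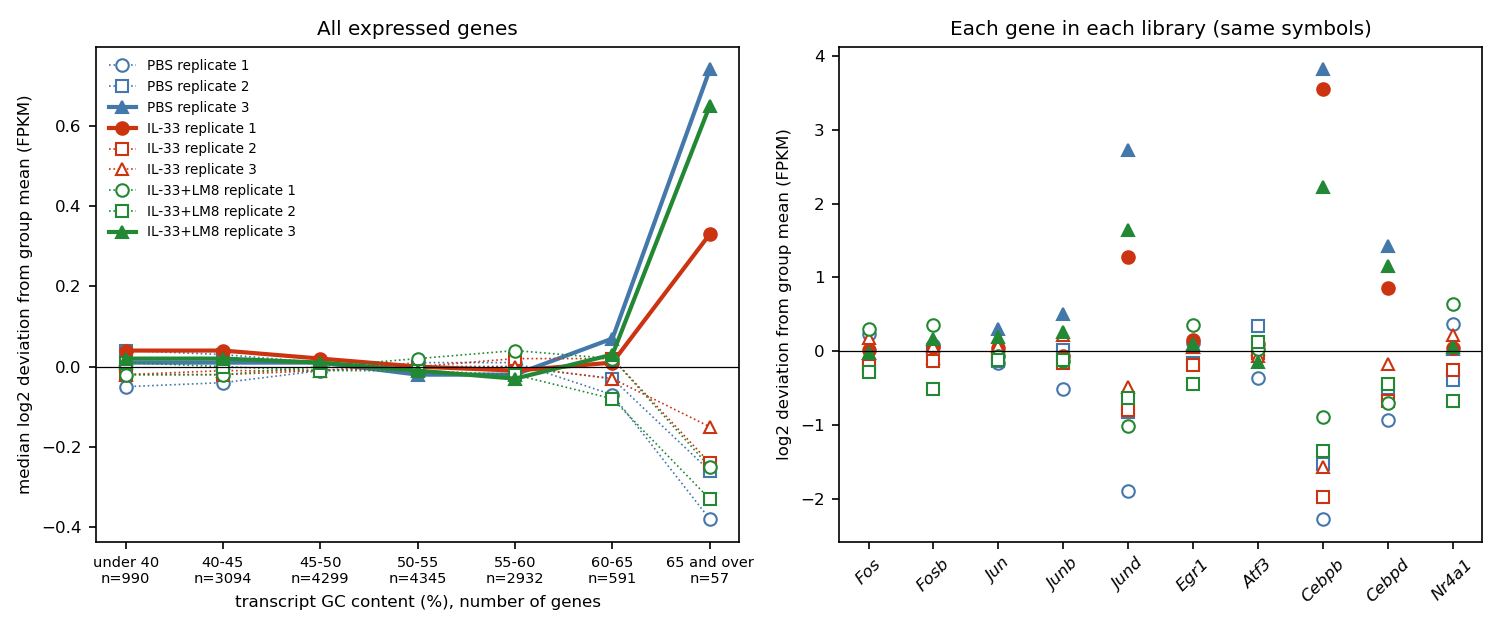
Left, median log2 deviation of each library from its group mean (vertical) against transcript GC content class (horizontal, with the number of genes); right, the same deviation for each of the 10 genes. Thick lines and filled symbols are PBS replicate 3, IL-33 replicate 1 and IL-33+LM8 replicate 3, which lay above 0 in the class of 65% and over and in Jund, Cebpb and Cebpd.

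Genes with the pattern most like Fos over the 9 libraries were sought as the smallest root mean square distance of centred log2 CPM. The nearest 6 of 16830 genes were Zbtb16, which encodes the factor PLZF, at 0.08, Arhgef38 at 0.09, Crybg2 at 0.10, and Lamc3, a laminin chain, Gm5148 and Ptprb, the vascular endothelial phosphatase, at 0.12 each. Zbtb16 was at 48.0, 33.5 and 40.2 FPKM in PBS lungs, 14.6, 13.6 and 14.6 with IL-33, and 31.3, 21.7 and 26.7 with LM8. Egr1 was the nearest member at 0.17, in rank 35, ahead of Fosb at 0.21 and Nr4a1 at 0.29. Nearest to the other members were Ccdc24 for Fosb, Zfp641 for Egr1, Nrap for Nr4a1, Mapk12 for Jun, Socs3 for Junb, Zfp268 for Atf3, 0610012G03Rik for Jund and Xpa for Cebpd. Cebpb was nearest to an unnamed gene at a distance of 0.75, and Junb was 0.17 from Socs3, the STAT3-induced feedback inhibitor.

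The wider families showed individual genes that rose while Fos fell. Of 15 AP-1 and ATF relatives tested, 3 were called higher and 0 lower by edgeR with IL-33, with 6 higher and 6 lower at any fold and a median log2 fold change of -0.18, against -0.01 over all genes. Over all genes 10.8% were called higher and 6.24% lower, and 27.4% were higher and 27.2% lower at any fold. Batf3, a BATF-family partner of Jun proteins, rose from a mean of 0.539 FPKM ± 0.0351 (SD, n = 3) to 11.0 ± 0.159 (log2 fold change 4.30, adjusted p = 1e-06). Batf rose by 1.19 (adjusted p = 6.3e-05). With LM8, Batf3 was lower than with IL-33 alone by 1.28 on the log2 scale (log2 fold change -1.28, adjusted p = 0.0021). In that comparison 2 of the 15 were called lower and 0 higher by edgeR, against 3.93% and 1.46% of all genes. At any fold 4 were higher and 3 lower, against 12.6% and 13.9%. Of 5 other C/EBP genes, only Cebpe, an eosinophil and neutrophil granule factor, was called. Its counts were 8, 0 and 0 in PBS lungs, 592, 518 and 464 with IL-33 and 78, 104 and 131 with LM8. The summed level of 6 eosinophil markers had that order too, at 3.82 to 4.45 FPKM in PBS lungs, where Epx was at 0 in all libraries, 40.3 to 45.7 with IL-33 and 8.42 to 9.09 with LM8. Siglecf, 1 of the 6, did not, with LM8 below PBS (log2 fold change -0.80, adjusted p = 0.0037 by edgeR). The part of eosinophils in the Cebpe result was not tested.

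Among 15 other immediate early transcription factors, 3 were called higher and 0 lower with IL-33, against 10.8% and 6.24% of all genes. Their median was near that of all genes (0.00 on the log2 scale). Egr2, the close relative of Egr1, rose by 2.52 (adjusted p = 5.5e-06 by edgeR), from 1.6, 2.08 and 1.67 FPKM in PBS lungs to 10.0, 11.0 and 9.81, whereas Egr1 fell in the same lungs. Nr4a3, a relative of Nr4a1, rose by 1.11 (adjusted p = 0.00031), and Myc, a driver of growth, by 1.93 (adjusted p = 2.7e-06). With LM8, Egr2 and Nr4a3 were lower than with IL-33 alone (-1.06, adjusted p = 0.0015, and -1.26, adjusted p = 0.00029), while Egr1 was higher. Nr4a3 was then at 2.08, 1.75 and 2.15 FPKM, within the PBS range of 1.8 to 2.45 except for replicate 2. Members of 1 family thus stood on opposite sides in the same libraries.

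Of 23 effectors and feedback genes, 4 were called higher and 3 lower with IL-33, against 10.8% and 6.24% of all genes. At any fold 6 were higher and 12 lower, against 27.4% and 27.2%, with a median of -0.30. Errfi1, a feedback inhibitor of EGF receptor signalling, fell by 1.44 on the log2 scale (adjusted p = 2.7e-06 by edgeR), Dusp1, a MAP kinase phosphatase, by 1.09 (adjusted p = 0.005), and Rhob, a small GTPase, by 1.03 (adjusted p = 0.013). Without the 3 libraries Dusp1 was at -1.0 and Rhob at -0.90. Zfp36l2, which binds AU-rich transcripts, rose by 1.68 (adjusted p = 0.0048), Socs3 by 1.36 (adjusted p = 6.4e-05) and Dusp5 by 1.06 (adjusted p = 0.0035). With LM8 against IL-33, 0 were called higher and 1 lower, Arc, a synaptic gene also used as an activity marker, at -1.31 (adjusted p = 0.038), and without the 3 libraries its adjusted p was 0.053. At any fold 7 were higher and 3 lower. Over all genes 1.46% were called higher and 3.93% lower in this comparison, and 12.6% and 13.9% passed at any fold.

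Of 10 secreted and surface targets tested, 5 were called higher and 0 lower with IL-33, and at any fold 8 were higher and 1 lower, with a median of 0.91. Over all genes 10.8% were called higher and 6.24% lower, and 27.4% were higher and 27.2% lower at any fold. Timp1, a metalloproteinase inhibitor, rose by 5.37 (adjusted p = 1.9e-06 by edgeR), Il6 by 4.15 (adjusted p = 1.6e-05) and Cd69, an activation marker of lymphocytes, by 1.80 (adjusted p = 0.00017). With LM8, Il6 alone of this list was called lower than with IL-33 (-1.22, adjusted p = 0.0086 by edgeR) and 0 were called higher. Over all genes 3.93% were called lower and 1.46% higher in that comparison. At any fold 5 of the 10 were lower and 0 higher, against 13.9% and 12.6% of all genes. Of 23 upstream kinases and SRF, TCF and CREB factors, 0 were called in IL-33 against PBS by edgeR, with 7 higher and 3 lower at any fold, and of 11 heat shock genes 0 were called, with 1 higher and 3 lower at any fold. Neither list had a call in LM8 against IL-33, where at any fold 1 upstream gene was higher and 1 lower and 0 heat shock genes passed. Over all genes 12.6% were higher and 13.9% lower at any fold there.

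Several list genes that had risen with IL-33, Cebpe among them, were also called higher with IL-33+LM8, against the same PBS lungs. Batf3 was higher by 3.03 on the log2 scale (adjusted p = 0.00021 by edgeR) and Batf by 1.10 (adjusted p = 0.0028), Myc by 1.83 (adjusted p = 0.00027) and Egr2 by 1.48 (adjusted p = 0.0012). Socs3 was higher by 1.5 (adjusted p = 0.00058). Timp1, Il6 and Cd69 were higher by 4.98, 2.95 and 1.22 (adjusted p = 0.0004, 0.00035 and 0.0035). Gadd45g, a stress-response gene, was called in IL-33+LM8 against PBS (1.13, adjusted p = 0.02, and 0.062 without the 3 libraries) and not in IL-33 against PBS, where it was higher by 0.68 (adjusted p = 0.00078). Across the 102 genes tested in the 7 lists, 10 were called higher than in PBS and 0 lower by edgeR, against 5.87% and 1.46% of all genes. At any fold 19 were higher and 9 lower, against 16.3% and 13.4%.

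**Figure D4:**
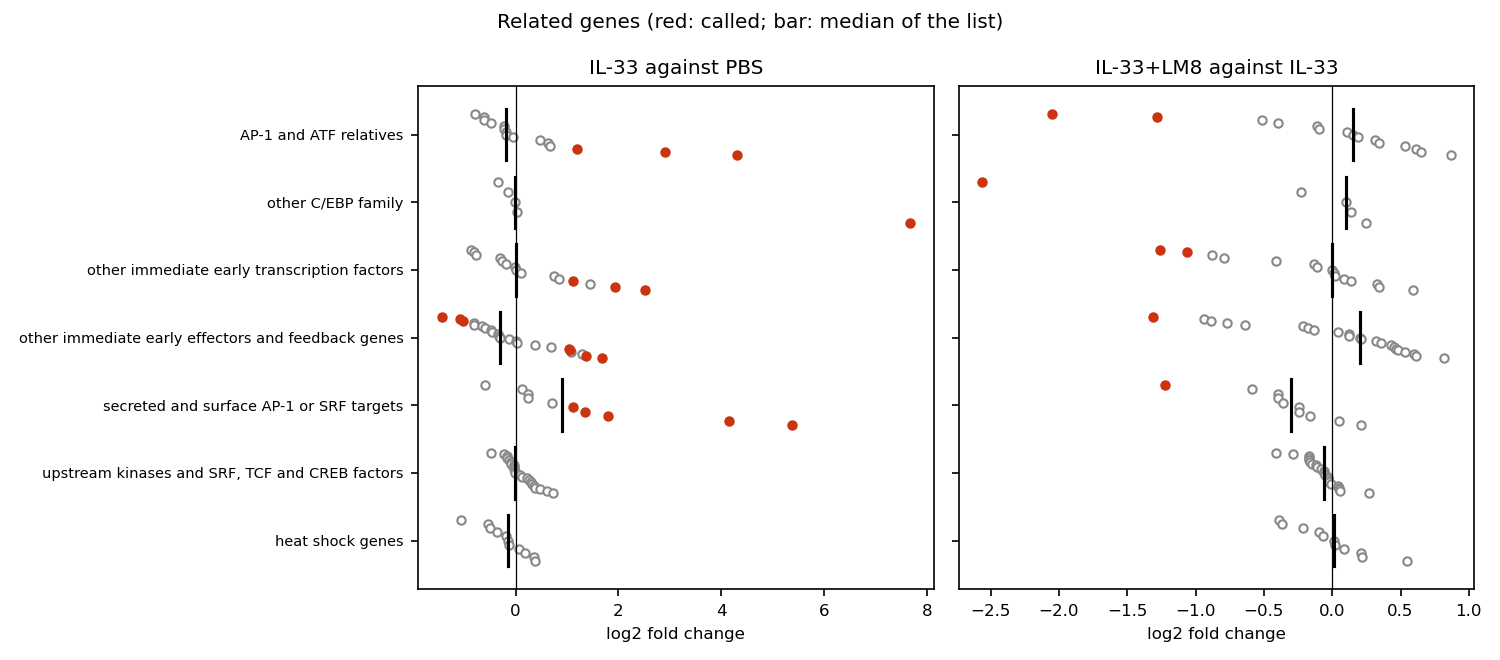
Log2 fold change (horizontal) of each tested gene in 7 lists of related genes, for IL-33 against PBS (left) and IL-33+LM8 against IL-33 (right), with red points called and a bar at the median of each list. The medians lay between -0.30 and 0.20 except for the secreted and surface targets at 0.91 with IL-33, and the called points of the right panel all lay below 0.

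Other markers are given for the whole lung. Red cell markers, 5 of 5 called lower with IL-33 (median -1.58), were 5 of 5 called higher with LM8 than with IL-33 alone (median 2.13), and their summed level was 7850 to 9290, 2540 to 3190 and 10900 to 12300 FPKM in PBS, IL-33 and LM8 lungs. By group means, that order of IL-33 lowest was shared with Fos, Fosb, Egr1, Jun and Nr4a1. These genes had their highest mean in PBS lungs, whereas the red cell sum was highest with LM8. Cebpd, at means of 20.55, 17.87 and 22.78 FPKM, also had IL-33 lowest and LM8 highest, but its groups overlapped. The part of red cells in these results was not tested.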

How the data were processed

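Whole-lung RNA of 9 mice was sequenced. The authors deposited 1 table with a raw read count and an FPKM value per gene and library, both made by their sequencing company. The submitters' processing notes name Bowtie 0.12.2, HISAT2 2.0, StringTie 1.3.0 and the build mm10. The counter and annotation are not given in the sources used here, and the table's gene coordinates differ from GRCm38, so none are printed. Groups were taken from the labels.

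Deposited counts were tested with edgeR 4.0.16 in R 4.3.3 (TMM factors, quasi-likelihood), each comparison on its own 6 mice. Genes needed a mean FPKM of at least 0.5 over the 9 mice and a count above 0 in the 6. A gene was called at an adjusted p under 0.05 and at least 2-fold. Depth of 53877663 to 90607218 reads per library sets the counting error only. Alternatives used DESeq2 1.42.0, limma 3.58.1 on log2(FPKM + 1), other filters, a replicate block and left-out libraries. Promoters were from RefSeq and GC content from GENCODE transcripts.

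The 10 genes and all lists were chosen with earlier results of these data known. All 10 genes were named, and from each list the genes called, at most the 3 with the largest rise and the 3 with the largest fall, with the genes nearest in pattern. One gene of the lists is not reported here, though the counts include it. Same-numbered mice deviated together in IL-33+LM8 against PBS (correlations of 0.21, 0.22 and 0.53) but not in IL-33 against PBS (-0.29, 0.24 and -0.10) or IL-33+LM8 against IL-33 (-0.25, 0.15 and -0.16). Differently numbered mice ranged from -0.41 (PBS replicate 3 with IL-33 replicate 2) to 0.48 (PBS replicate 3 with IL-33 replicate 1). The 3 libraries that stand apart gave 0.46 to 0.53 among themselves, whatever their numbers. The labels do not say what a number stands for.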

Additional observations from a re-analysis of the deposited data

How the results depend on the processing

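The counts of called genes were 6, 1 and 2 in IL-33 against PBS, IL-33+LM8 against IL-33 and IL-33+LM8 against PBS. With the replicate number as a block (replicate block) they were again 6, 1 and 2, the same genes each time. With no minimum fold change 4 genes passed in IL-33+LM8 against IL-33, and limma on log2(FPKM + 1) called 1 gene, Junb, in IL-33+LM8 against PBS. Leaving out each library in turn gave 4 to 7, 0 to 2 and 2 to 3 called genes. Leaving out the 3 libraries that stand apart was, like the GC offset, an alternative chosen after seeing the data. Apart from Jund, the genes called were then the same in all 3 comparisons. No call is counted for Jund there, since those libraries were picked by its values and a smaller spread was built in.

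Over all alternatives, 468 fitted log2 fold changes of single genes changed neither sign nor call, 24 turned their sign, 8 lost and 7 gained a call. Of the gained calls, 3 were in Jund with its highest libraries left out. The 468 were not limited in size, and include Cebpb in IL-33 against PBS without PBS replicate 3, at 4.52 in place of 0.40. Signs turned only in Jund, Cebpb, Cebpd and Junb. Cebpd in IL-33 against PBS (-0.20) became 0.02 and 0.03 with limma on log2(FPKM + 1) and log2(FPKM + 0.1), 0.01 with the replicate block and 0.33 without the 3 libraries, and Junb in IL-33+LM8 against IL-33 (0.04) became -0.13 without the 3. With single libraries left out, IL-33 against PBS ranged from -0.40 to 3.10 for Jund, -3.39 to 4.52 for Cebpb and -0.74 to 0.87 for Cebpd. IL-33+LM8 against IL-33 ranged from -1.78 to 0.46 for Jund, -4.62 to 1.16 for Cebpb, -0.46 to 0.91 for Cebpd and -0.09 to 0.17 for Junb. IL-33+LM8 against PBS ranged from -1.24 to 2.63 for Jund, -4.22 to 1.91 for Cebpb and -0.66 to 1.24 for Cebpd. The cause of these turns was not tested beyond the left-out libraries themselves. With 3 mice a group, 1 time point and no LM8-only mice, early peaks of these genes and LM8's own effect could not be seen.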
